A study of Mus musculus with 847 samples.

Results

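Gpr17, Bmp4, Enpp6, Neu4, Bcas1 and Myrf are 6 genes used to mark oligodendrocyte precursors that have committed to differentiate, and the newly formed oligodendrocytes that follow. They were taken by name from the 21076 genes of a mouse brain ageing series and were chosen by their change in read count with age, to follow the timing of a fall in newly forming oligodendrocytes. Their change with age is therefore given below as a description with its error and without p-values. Counts of regions called for it in a fit over all genes are given for reference alone, and nothing is read from them. The data went against a common name for the 6 genes. Gpr17 was lower than at 3 months at each later age in all 15 regions, and Neu4 had a negative slope over age in 14. Bmp4 was scarce and varied widely. Averaged over the regions, the fitted levels of Bcas1 and Myrf were above those of 3 months at all later ages, and Enpp6 was mixed. They are called here by their gene names and not as a cell type.

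Bulk RNA of homogenised tissue from 15 brain regions was sequenced in 59 mice of the strain C57BL/6JN, 25 females and 34 males, in 847 libraries. There were 5 females and 5 males at each of 3, 12, 15 and 18 months, and 5 females and 6 males at 21 months. At 26 months there were 5 males and at 28 months 3 males, so the oldest ages hold males alone. The labels give no treatment and no engineered allele, and they number the mice, so the libraries of a group come from separate animals, while the regions of one mouse share that animal.

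Oligodendrocyte precursors persist in the adult brain, divide, and give rise to oligodendrocytes, which wrap axons in myelin. On the way they pass through a short premyelinating stage in which the receptor gene Gpr17 is switched on and then off again. Adult oligodendrocyte formation is known to slow with age, while myelinating oligodendrocytes are long lived. Of the 6 genes, Bmp4 encodes a secreted ligand of the BMP pathway and Gpr17 a G protein-coupled receptor. Neu4 encodes a sialidase, Enpp6 a choline-specific phosphodiesterase of the cell surface, Bcas1 a protein of early myelinating and mature oligodendrocytes, and Myrf a transcription factor required for the myelin programme.

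The shallowest library held 481444 reads and the deepest 26756735. The median was 6716032 reads, and 10 libraries lay under 1000000. The markers of each dissected region lay above the median of the other regions in all libraries except 1 of 51 from entorhinal cortex and 1 of 58 from posterior hippocampus. These libraries, of mice 52 and 38, and that of mouse 3 from the subventricular zone stood apart. The 12-month and 26-month mice carry the numbers 1 to 15, the 28-month mice 57 to 59, and the other ages 16 to 56. In medulla the libraries of mice 45 to 59 also stood apart. Among females of 3 to 21 months, 4804 of 14118 genes (34.0%) differed between mice 45 to 56 and mice 37 to 44 in edgeR's quasi-likelihood test with age as a factor, against 0 to 8 genes in the other 14 regions. Of the 6 genes only Myrf passed in that comparison, at -1.04 ± 0.12 (SE) log2 for 12 against 8 mice. The cut at mouse 45 was chosen after the values of Myrf were seen. Its difference is therefore a description, given without a p-value. All medulla libraries of 28 months are among them, so medulla results are also given from mice 1 to 44.

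Promoter windows of RefSeq on GRCm38.p6 were matched for 3 of the 6 genes, Bmp4, Enpp6 and Neu4. The 250 bases upstream of the RefSeq start are printed for Neu4, with a negative mean slope over age, and for Enpp6, with a positive one, both on the plus strand, at chr1:94020243-94020492 and chr8:46986637-46986886.
Neu4: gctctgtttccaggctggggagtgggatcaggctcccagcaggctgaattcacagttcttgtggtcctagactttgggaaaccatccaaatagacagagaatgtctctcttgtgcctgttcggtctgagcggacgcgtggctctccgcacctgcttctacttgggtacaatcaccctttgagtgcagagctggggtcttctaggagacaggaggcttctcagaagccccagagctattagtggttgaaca
Enpp6: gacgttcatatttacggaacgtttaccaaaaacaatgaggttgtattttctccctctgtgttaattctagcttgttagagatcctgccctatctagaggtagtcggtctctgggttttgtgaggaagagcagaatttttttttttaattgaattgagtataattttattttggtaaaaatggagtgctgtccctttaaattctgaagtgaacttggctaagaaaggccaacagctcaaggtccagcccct
The letters ACAAAG (the core bound by SOX factors), CAGCTG (an E-box) and CTGGCAC (the core of the MYRF motif) were searched on both strands of the full windows, which run on past the start. No match was found in the windows of Neu4, Enpp6 or Bmp4, so no base is capitalised. Of 32851 RefSeq promoter windows of this length, 18.7% held ACAAAG, 16.3% CAGCTG and 5.01% CTGGCAC. The absence of these letters describes these windows alone.

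The 6 genes lie apart in the genome. In the GENCODE annotation of GRCm38, Gpr17 (ENSMUSG00000052229.5) is at chr18:31942997-31949636 on the minus strand, inside Lims2, which lies on the opposite strand and shares 188 exonic bases with it. Bcas1 is at chr2:170346991-170427845 on the minus strand and shares 440 exonic bases with the antisense gene Bcas1os1 and 34 with Bcas1os2. Neu4 is at chr1:94020451-94028334 and Enpp6 at chr8:46986887-47096762, both on the plus strand. Myrf is at chr19:10208272-10240748 and Bmp4 at chr14:46383520-46390669, both on the minus strand. Bmp4 shares 89 exonic bases with Gm15217 on the opposite strand. The libraries are unstranded, so reads from the shared bases cannot be assigned to one gene. Lims2, an adaptor of integrin adhesions, was therefore followed beside Gpr17.

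The 6 genes differed widely in abundance. Levels are given as CPM, reads of a gene per 1000000 reads of the library after normalization. Per kilobase of exon, the median CPM in corpus callosum at 3 months was 97.5 for Bcas1, 12.5 for Myrf, 11.0 for Gpr17, 6.66 for Enpp6, 2.18 for Neu4 and 1.12 for Bmp4. Gpr17, Enpp6, Bcas1 and Myrf had reads in all 847 libraries, with medians of 170, 86, 970 and 283 reads. Neu4 had a median of 47 reads and none in 2 libraries, and Bmp4 a median of 11 reads and none in 24 libraries, so single values of Bmp4 are imprecise. In bulk tissue, fewer cells of a type and less RNA per cell cannot be told apart.

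Gpr17 was lower from the first interval on and lower still at the later ages. Averaged over the 15 regions, its mean level was 75.5% of the 3-month mean at 12 months, 66.7% at 15, 58.6% at 18, 59.6% at 21, 52.6% at 26 and 50.4% at 28 months. The level was under 50% of the start in 0, 0, 2, 3, 5 and 7 regions at these ages in turn. In males alone the corresponding shares were 77.7%, 69.7%, 60.0%, 58.4%, 53.9% and 51.7%, so the descent was close to that of both sexes pooled.

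**Figure D1:**
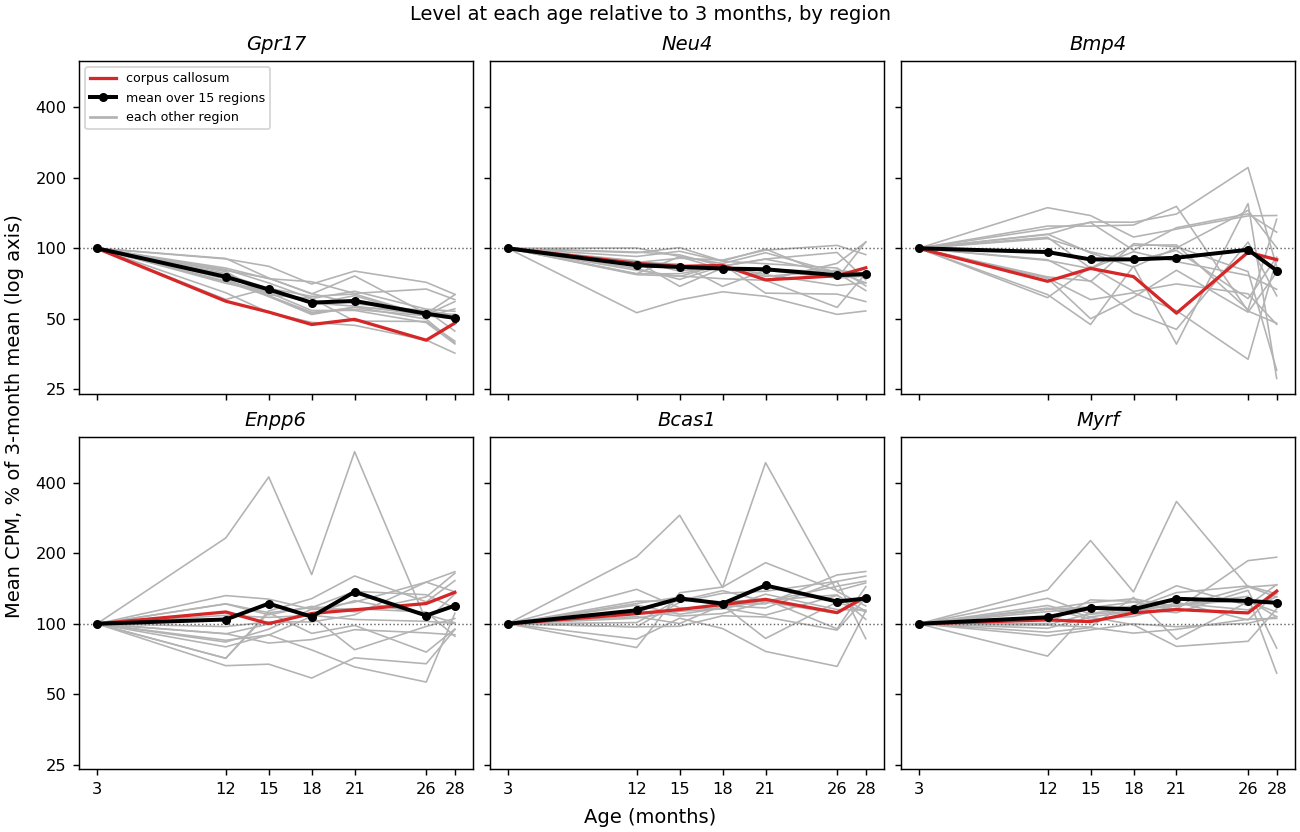
Mean CPM at each age as a percent of the 3-month mean (y axis, log scale) against age in months (x axis), 1 panel per gene, with a red line for corpus callosum, a grey line for each other region and a black line for the mean of the 15 regions. Gpr17 descends to 50.4% at 28 months, Neu4 ends at 77.6%, and the mean lines of Enpp6, Bcas1 and Myrf stay above 100%.

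In corpus callosum, the large tract of myelinated axons, the 10 libraries of 3 months held from 41.1 to 64.3 CPM of Gpr17, with a median of 57.1. The 9 libraries of 12 months held 28.7 to 37.8 CPM, with a median of 32.4. No library older than 3 months reached the lowest of the 3-month libraries. The ranges were 23.4 to 38.2 CPM with a median of 29.2 at 15 months, 21.5 to 35.2 with a median of 25.5 at 18 months, and 20.3 to 32.1 with a median of 26.5 at 21 months. The 4 libraries of 26 months held 18.3, 21.5, 22.9 and 25.9 CPM, and the 3 of 28 months 21.9, 24.0 and 32.9 CPM. Most of the callosal decrease thus lay between the first 2 ages sampled: the fitted step from 3 to 12 months was -0.73 ± 0.087 (SE) log2, and the level at 21 months was -1.01 ± 0.082 log2 below the start. The rate was -0.081 log2 per month from 3 to 12 months and -0.017 from 12 to 28 months.

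**Figure D2:**
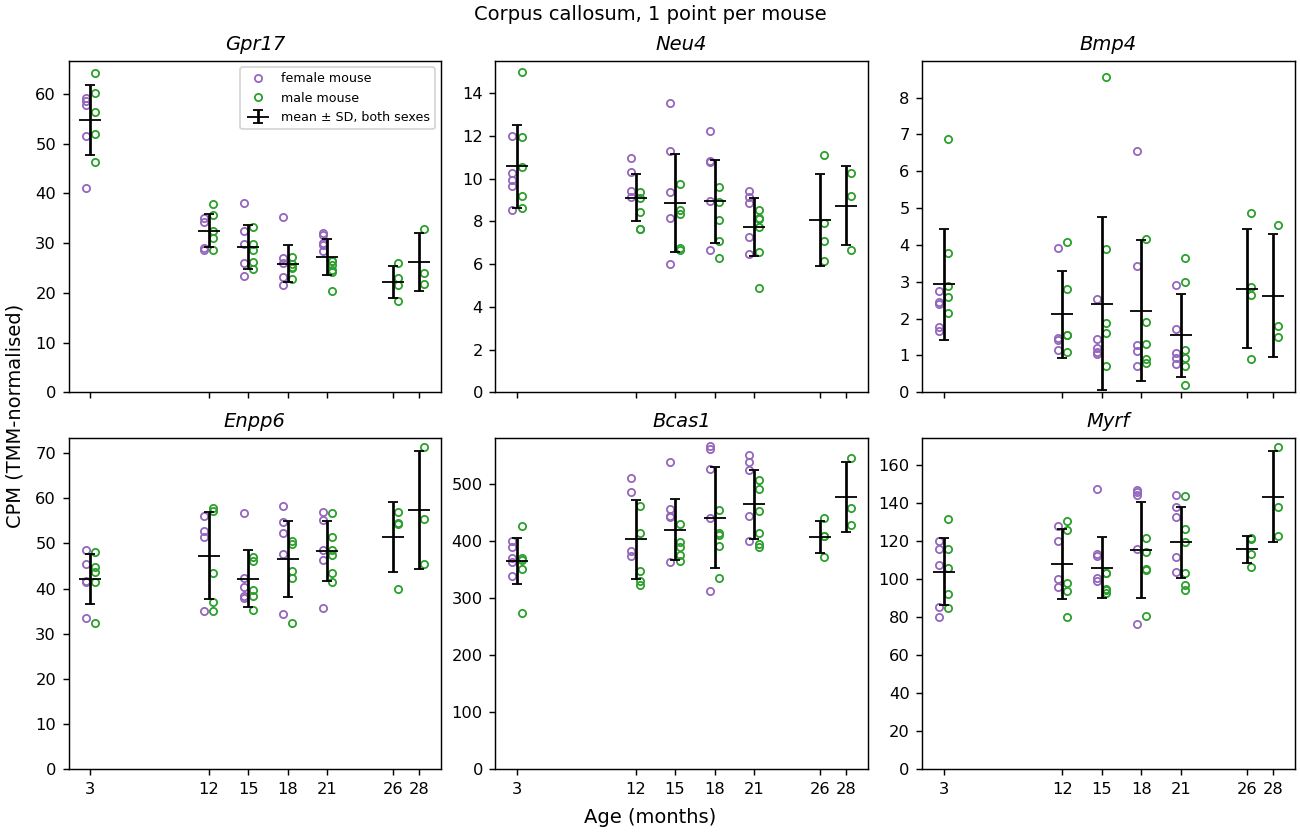
CPM of each of the 6 genes in corpus callosum (y axis, 1 panel per gene) against age in months (x axis), 1 point per mouse by sex, with bars for the mean and SD of each age. For Gpr17 all libraries older than 3 months lie below the 10 libraries of 3 months, while the ages overlap for Neu4, Bmp4 and Enpp6.

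Olfactory bulb, which receives new cells through adult life, had the steepest decrease of Gpr17. Its mean was 33.3 ± 3.81 CPM (SD, n = 10) at 3 months, 21.5 ± 1.75 (n = 10) at 12 months and 11.9 ± 1.47 (n = 3) at 28 months, where the libraries held 10.8, 11.3 and 13.6 CPM. That was 35.7% of the start, the lowest share of the 15 regions. Pons started at 43.8 ± 3.48 CPM (n = 9), was at 26.5 ± 2.72 (n = 6) by 12 months and at 24.2 ± 7.11 (n = 3) at 28 months, so its level hardly moved after the first interval. Medulla stood at the other end, with 33.1 ± 4.44 CPM (n = 10) at 3 months, 29.8 ± 4.65 (n = 9) at 12 months and 20.7, 25.3 and 17.2 CPM in the 3 libraries of 28 months. The 3-month and 28-month ranges of Gpr17 overlapped in medulla alone.

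The separation of single libraries followed the same course. All Gpr17 libraries of an age lay below all those of 3 months in 3 of 15 regions at 12 months (corpus callosum, olfactory bulb and pons), and in 7, 11, 12, 13 and 14 regions at 15, 18, 21, 26 and 28 months. Over all gene and region pairs with at least 1 CPM, the share that separated downwards was 0.0338%, 0.0299%, 0.0391%, 0.0637%, 0.693% and 2.94% at these ages in turn. Since Gpr17 was chosen by its decrease, nothing is read from this difference. At 26 and 28 months fewer libraries have to lie apart.

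As a slope over all ages, Gpr17 changed by -0.041 log2 per month on average over the regions, from -0.061 ± 0.0033 (SE) in olfactory bulb to -0.022 ± 0.0041 in medulla. A slope is called here at an adjusted p of 0.05 in edgeR's quasi-likelihood test, which Gpr17 met in 15 of 15 regions. Of all gene and region pairs tested, 4.71% were called falling and 5.87% rising, and 8.71% and 9.06% in corpus callosum. All 6 genes were chosen on this contrast, so for none of them is anything read from its count of calls, here or below. From mice 1 to 44 the medulla slope was -0.020 ± 0.0048. Corpus callosum had -0.051 ± 0.0042, anterior hippocampus -0.049 ± 0.0032, motor cortex -0.050 ± 0.0033, hypothalamus -0.030 ± 0.0037 and entorhinal cortex -0.031 ± 0.0054.

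Steps against 3 months give the timing of Gpr17 more directly. The mean step over regions was -0.42 log2 at 12 months, -0.60 at 15, -0.78 at 18, -0.76 at 21, -0.91 at 26 and -0.99 at 28 months. It was called in 8, 13, 15, 14, 15 and 14 regions (from males alone in 3 at 12 months and 7 at 15 months), a count from which nothing is read, where 0.668%, 0.45%, 0.921%, 2.65%, 1.32% and 2.47% of all pairs were called lower. The mice of 12 months and those of 3 months come from different ranges of mouse numbers, so for that step the number range and the age cannot be told apart. Within mice 1 to 15, the 26-month libraries were below the 12-month ones in 15 of 15 regions, by -0.49 log2 on average, from -0.76 in entorhinal cortex to -0.21 in pons. Within mice 16 to 56 the means at 15, 18 and 21 months were -0.60, -0.78 and -0.76 log2 below 3 months. Between 18 and 21 months the mean change was 0.02 log2, and between 26 and 28 months -0.080, both smaller than the SD over regions.

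Lims2 had a shallower course, with a slope called falling in 3 regions, corpus callosum, olfactory bulb and visual cortex. Its mean level over the regions was 100% of the start at 12 months, 93.7% at 18 months and 88.1% at 28 months, and its mean slope was -0.0039 log2 per month. In corpus callosum its step from 3 to 12 months was -0.036 ± 0.095 (SE) log2, beside -0.73 for Gpr17.

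Neu4 had a negative slope in 14 of 15 regions, with a mean of -0.015 log2 per month beside -0.041 for Gpr17. Whether the courses of the 2 genes differ was not tested, and the interval from 3 to 12 months crosses the ranges of mouse numbers. Its mean level was 84.6% of the 3-month level at 12 months, 83.2% at 15, 81.9% at 18, 81.3% at 21, 76.7% at 26 and 77.6% at 28 months. The mean rate was -0.028 log2 per month from 3 to 12 months and -0.0067 from 12 to 28 months, steeper early in 11 of 15 regions. For Gpr17 these rates were -0.047 and -0.036, steeper early in 8 of 15 regions. Within mice 1 to 15 the mean step from 12 to 26 months was -0.11 log2 for Neu4, beside -0.49 for Gpr17.

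Visual cortex had the largest decrease of Neu4. The 10 libraries of 3 months ran from 3.54 to 7.54 CPM with a median of 4.88, and the 8 of 12 months from 1.44 to 4.35 with a median of 2.68. At 28 months the 3 libraries held 2.13, 2.63 and 3.29 CPM, all below the 3-month libraries. The visual slope was -0.036 ± 0.0073 (SE) log2 per month, followed by cerebellum at -0.027 ± 0.0087 and motor cortex at -0.024 ± 0.0055. In corpus callosum Neu4 went from 10.6 ± 1.97 CPM (SD, n = 10) at 3 months to 9.12 ± 1.10 (n = 9) at 12 months and 8.73 ± 1.85 (n = 3) at 28 months, with overlapping ranges and a slope of -0.014 ± 0.0051. Medulla, at 0.0018 ± 0.0044, had a positive slope, which from mice 1 to 44 was -0.00049 ± 0.0056, so that all 15 slopes were then negative.

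Neu4 was called falling in 7 of 15 regions, given as a description: anterior hippocampus, motor cortex, visual cortex, thalamus, cerebellum, choroid plexus and corpus callosum. This count was the least stable among those called falling. It was 2 from males alone and 4 without mouse 17 or without mouse 59, in each of the latter cases anterior hippocampus, motor cortex, thalamus and visual cortex. All Neu4 libraries lay below those of 3 months in 2 regions at 26 months (motor and visual cortex) and in 3 at 28 months (choroid plexus, hypothalamus and visual cortex).

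Bmp4, the ligand, gave no clear direction. Its slope was negative in 11 of 15 regions and was called in none. It ran from -0.050 ± 0.018 (SE) log2 per month in caudate putamen to 0.015 ± 0.0094 in visual cortex, with a mean of -0.013. At an average of 1.92 ± 1.13 CPM (SD, n = 9) at 3 months and 0.645 ± 0.557 (n = 5) at 26 months in caudate putamen, the values rest on few reads, and the 3 libraries of 28 months there averaged 1.73 ± 1.35. Without mouse 1, 2, 16, 19, 37, 57 or 59, left out one at a time, the slope in caudate putamen was called. From mice 16 to 56 alone 2 regions did, caudate putamen and subventricular zone, both falling.

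In corpus callosum the mean of Bmp4 was 2.93 ± 1.51 CPM (n = 10) at 3 months, 2.12 ± 1.18 (n = 9) at 12 months, 1.55 ± 1.13 (n = 11) at 21 months and 2.62 ± 1.67 (n = 3) at 28 months, and all ages overlapped. In visual cortex it was 4.05 ± 1.66 CPM (n = 10) at 3 months and 4.75 ± 1.78 (n = 3) at 28 months. Posterior hippocampus at 28 months was the 1 of 13 regions in which all Bmp4 libraries lay below those of 3 months.

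Bcas1 and Myrf, which act in myelin formation, were on average above their 3-month level, and Enpp6 was mixed. The mean fitted step against 3 months was 0.15 log2 at 12 months and 0.39 at 21 for Bcas1, 0.07 and 0.27 for Myrf, and -0.028 and 0.22 for Enpp6. Averaged over regions, Bcas1 was at 114% of its 3-month level at 12 months, 128% at 15, 146% at 21 and 128% at 28 months. Myrf was at 107%, 117%, 128% and 123% at these ages, and Enpp6 at 104%, 122%, 137% and 120%, although at 12 months Enpp6 was under its 3-month mean in 9 of 15 regions. Entorhinal cortex raised these averages and stood highest at 21 months, with 488% for Bcas1, where its 11 libraries ran from 15.4 to 535 CPM with a median of 25.1, beside 12.4 to 37.8 and a median of 20.4 at 3 months. The steep entorhinal slope of Bcas1 of 0.072 ± 0.030 (SE) log2 per month was 0.042 without the library of mouse 52, that of Enpp6 went from 0.066 to 0.046 and that of Myrf from 0.058 to 0.038, and none of these was called.

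Bcas1 had a positive slope in 14 of 15 regions and was called rising in 8, with 0.040 ± 0.012 (SE) log2 per month in choroid plexus, 0.031 ± 0.0069 in anterior hippocampus, 0.023 ± 0.0068 in subventricular zone and 0.017 ± 0.0034 in corpus callosum. The others called rising were medulla, pons, motor cortex and olfactory bulb. In corpus callosum the 10 libraries of 3 months held 274 to 427 CPM of Bcas1 with a median of 368, and the 3 of 28 months 428, 457 and 546 CPM, just above the highest of 3 months. Posterior hippocampus, at -0.0047 ± 0.0080, had a negative slope. Males alone gave 3 regions rising.

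Myrf was called rising in 6 of 15 regions: choroid plexus (0.028 ± 0.0095 SE), anterior hippocampus (0.024 ± 0.0061), subventricular zone (0.019 ± 0.0064), motor cortex (0.018 ± 0.0054), corpus callosum (0.015 ± 0.0042) and olfactory bulb (0.012 ± 0.0032), in log2 per month. In corpus callosum it went from 104 ± 17.5 CPM (SD, n = 10) at 3 months to 143 ± 24.0 (n = 3) at 28 months, with overlap. None of the regions was called from males alone, and 2 from mice 16 to 56. In medulla its slope was 0.00087 ± 0.0083 (SE) over all mice and 0.012 ± 0.0040 from mice 1 to 44. The step of -0.83 log2 of Myrf at 28 months in medulla, where its 3 libraries held 50.2, 54.5 and 59.9 CPM, coincides with the high mouse numbers and cannot be told apart from them.

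Enpp6 was called rising in 2 regions, choroid plexus (0.033 ± 0.011 SE) and corpus callosum (0.014 ± 0.0044), in log2 per month, had a negative slope in 5 regions, and was called rising in 1 region from males alone, from mice 16 to 56 alone, or without mouse 17. In corpus callosum it went from 42.1 ± 5.49 CPM (SD, n = 10) at 3 months to 48.4 ± 6.61 (n = 11) at 21 months, and the 28-month libraries held 45.5, 55.4 and 71.4 CPM. In subventricular zone all 3 libraries of 28 months lay above those of 3 months for Enpp6, Bcas1 and Myrf. Bcas1 did so in corpus callosum too, and at 12 months in thalamus. Of all pairs, 0.0565% separated upwards at 12 months and 3.14% at 28 months. At 28 months 3.3% of all pairs were called higher than at 3 months, against 2 of 15 regions for Bcas1, 3 for Myrf and 1 for Enpp6.

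**Figure D3:**
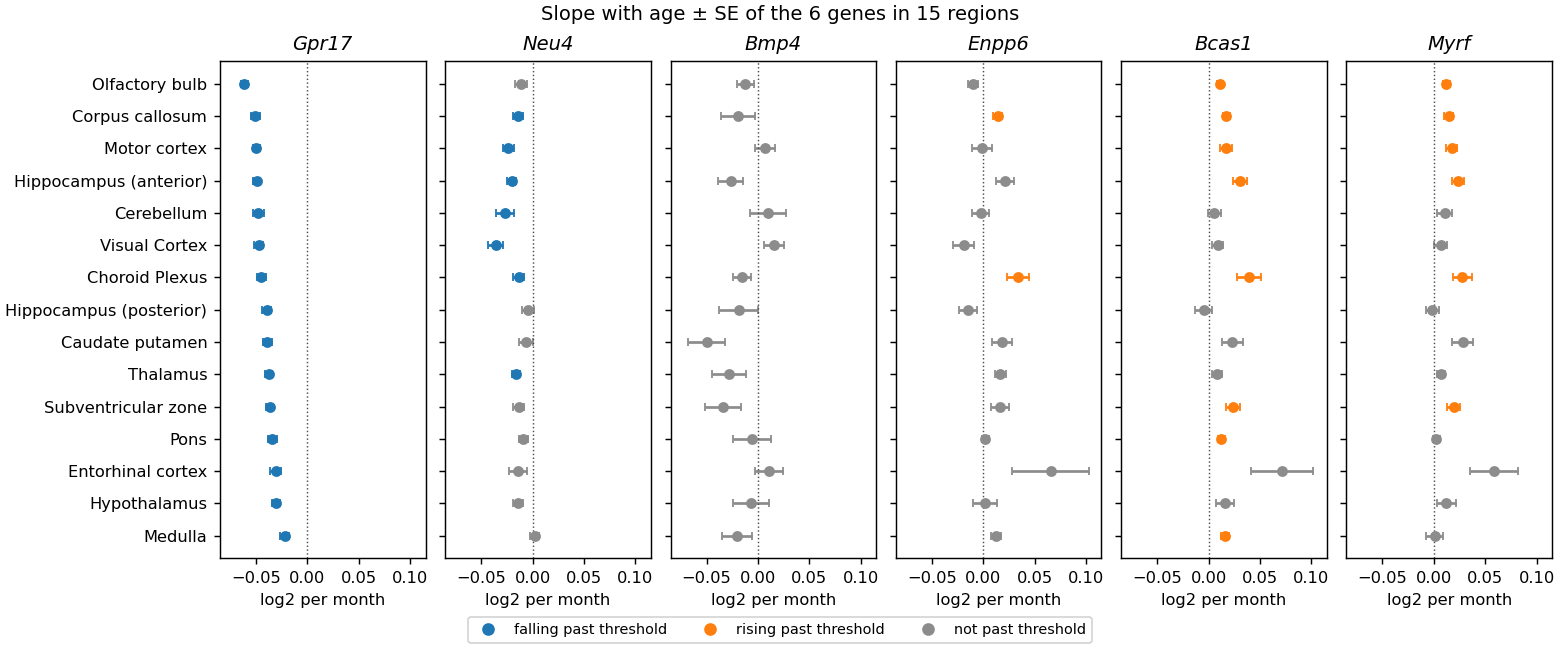
Change with age in log2 per month with its SE (x axis) in each of the 15 regions (y axis), 1 panel per gene, with blue for falling and orange for rising past the threshold, grey for the others, and a dotted line at 0. The slopes of Gpr17 run from -0.061 to -0.022, those of Neu4 from -0.036 to 0.0018, and most of those of Bcas1 and Myrf lie above 0.

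In choroid plexus these 3 genes were lower at 12 months and higher at 21 and 28 months than at 3 months, as was the summed level of the myelin genes. Bcas1 there averaged 215 CPM at 3 months, 170 at 12, 392 at 21 and 321 at 28 months, Myrf 72.6, 52.9, 106 and 107, and Enpp6 21.0, 14.9, 33.5 and 32.0. The summed level of 14 myelin genes in the same libraries ran from 6055 to 29548 CPM at 3 months, 5212 to 15359 at 12, 15022 to 31696 at 21 and 15147 to 21292 at 28 months. Choroid plexus epithelium holds no oligodendrocytes, and the part of adjoining tissue in these values was not tested. The callosal sum of these myelin genes was 20284 to 28188 CPM at 3 months and 26511 to 36538 at 28 months.

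Other gene lists of the corpus callosum samples were set beside Gpr17, and some were lower at 28 months while others were not. Which cells hold the cell division genes was not tested. The summed level of 5 neuroblast and cell division genes was 61.5 to 106 CPM at 3 months and 39.0 to 49.1 at 28 months, with no overlap, and Dcx had reads in every library. That of 5 proliferation genes, which share members with them, was 16.8 to 43.8 and 4.88 to 9.38 CPM. The summed level of 5 choroid plexus genes ran from 6.25 to 14496 CPM among the 3-month callosal libraries alone, and the first of them, Ttr, had no read in some callosal libraries. The summed level of 9 precursor genes was 295 to 358 CPM at 3 months and 322 to 370 at 28 months. Their part in the Gpr17 values was not tested. With the mean of the oligodendrocyte lineage genes Sox10, Olig1 and Olig2 as a covariate, Gpr17 was called falling in 15 of 15 regions and Neu4 in 10, Myrf rising in 3 and Bcas1 in 6, and Enpp6 in 1 region in each direction. The share of all pairs called in this fit is not given, and Sox10 was itself called rising in 6 regions without the covariate. Nothing is therefore read from these counts. The mean slope of Enpp6 with the covariate was -0.0024 log2 per month, beside 0.010 without it.

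The other genes of the pathway were described by their counts of gene and region pairs called. Among 18 further genes of newly formed oligodendrocytes, 42 of 248 pairs fell and 3 rose, against 4.71% and 5.87% of all pairs, with a median slope of -0.0043 log2 per month beside -8.9e-05 for the median of all genes. No gene of this list fell in 8 or more regions. Tcf7l2, a transcription factor of the premyelinating stage, fell in 2 regions. Chosen after their values were seen, Rras2, a small GTPase, fell in 7 regions, Dct in 6, and Tmem163 and the kinase gene Fyn in 5 each. The callosal slope of Tmem163 was -0.028 ± 0.0063 (SE), that of Fyn -0.010 ± 0.0022, and that of the transcription factor Nkx2-2 was 0.027 ± 0.0054, in log2 per month, each past the threshold.

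Earlier and later stages of the lineage were counted in the same way, beside 4.71% falling and 5.87% rising of all pairs. Of 135 pairs of 9 precursor genes 5 fell and 2 rose, and Pdgfra, the growth factor receptor that defines precursors, fell in no region and rose in 2. Of 45 pairs of the lineage transcription factors 1 fell and 6 rose, all 6 of them Sox10. Of 210 pairs of 14 myelin genes 8 fell and 38 rose. Mbp, myelin basic protein, rose in 3 regions, Aspa, the aspartoacylase of oligodendrocytes, and Trf, transferrin, in 8 each, and the transcription factor Nkx6-2 in 9. At 28 months the summed level of a list was, in the median region, 95.2% of its 3-month level for newly formed oligodendrocytes, 102% for precursors and 110% for myelin genes, beside a mean of 50.4% for Gpr17 alone.

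Of 254 pairs of 17 genes of BMP receptors, signal transducers, antagonists and targets, 4 fell (1.57%) and 17 rose (6.69%). Of all pairs 4.71% were called falling and 5.87% rising, so the rising share of the list was near that of all pairs. The receptor gene Bmpr1a passed in no region. Of the others, named after their values were seen, Smad6, an inhibitor of the pathway, rose in 4 regions, with a mean slope over regions of 0.022 log2 per month, Smad9 in 4 and the inhibitor gene Smad7 in 3. Among the direct targets Id3 rose in 3 regions, Id2 in 1, and Id1 and Id4 in none.

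The lists of other cells also stand beside 4.71% falling and 5.87% rising of all pairs. Of 75 microglial pairs 2 fell and 43 rose, with Cx3cr1 rising in 11 regions, Tmem119 in 10, and Csf1r rising in 10 and falling in 2. Of 90 astrocyte pairs 8 fell and 26 rose. Gfap, the intermediate filament of astrocytes, rose in 12 regions, and the water channel gene Aqp4 rose in 3 and fell in 2. Of 45 proliferation pairs 14 fell and 1 rose, and of 62 pairs of the overlapping neuroblast list 22 fell and 2 rose, with Sox11 falling in 12 regions, Mki67 falling in 4 and rising in 1, and Dcx passing in 1 region each way. Neuronal genes had 4 falling and 3 rising of 75 pairs, endothelial genes 1 and 3 of 60, fibroblast and mural genes 6 and 2 of 75, and choroid plexus genes 2 and 5 of 60. Of the first genes of these lists, Snap25 and Ttr passed in 1 region each way, Cldn5 in none, and Col1a1 fell in 2.

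Sex was not used in choosing the 6 genes and was tested at the ages that hold both sexes. At 3, 15, 18 and 21 months all males carry the numbers 16 to 36 and all females 37 to 56, so there the sex and the number range cannot be told apart. At 12 months both sexes lie within numbers 1 to 15, and from these mice alone no pair of the 6 genes passed. In edgeR's quasi-likelihood test 2 of 90 gene and region pairs passed, beside 2.71% of all pairs. The first was Bcas1 in posterior hippocampus, with 80.4 ± 25.3 CPM (SD, n = 26) in males and 109 ± 34.9 (n = 24) in females, a difference of males minus females of -0.42 ± 0.12 (SE) log2 and an adjusted p of 0.033. Without mouse 1 the value was -0.40 ± 0.12 with an adjusted p of 0.054, and from 12-month mice alone it was -0.60 with an adjusted p of 0.28. The second was Myrf in medulla, with 110 ± 14.5 CPM (n = 26) in males and 85.1 ± 33.8 (n = 24) in females, 0.36 ± 0.12 log2 and an adjusted p of 0.020.

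The medulla difference rested on the libraries that stood apart. Females of mouse numbers 37 to 44 held 96.8 to 168 CPM of Myrf and those of 45 to 56 held 31.1 to 74.0 CPM, while the males of numbers 16 to 36 held 88.2 to 135 CPM. From mice 1 to 44, a cut chosen on the values of Myrf, the difference was -0.089 ± 0.065 (SE) log2, with an adjusted p of 0.53 in the same test. Of all genes in medulla 22.5% differed by sex over all mice and 0.289% from mice 1 to 44, against 1.27% in the other 14 regions. Bcas1 was lower in males in 12 of 15 regions, by -0.17 log2 on average, and Myrf in 12, by -0.11. The regions share the same mice, so these counts are not independent, and the mean of Myrf includes medulla over all mice. Before adjustment Bcas1 passed 0.05 in 6 regions, Myrf in 5, Enpp6 and Neu4 in 2 each, Gpr17 in 1 and Bmp4 in 0, beside 27839 of all 211769 pairs.

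None of the 90 pairs passed in edgeR's test of a difference in slope between the sexes, beside 0.0727% of all pairs, which does not show that the slopes were alike. Before adjustment 2 pairs passed 0.05, Bmp4 and Enpp6 in hypothalamus, beside 12529 of all 211769. For Gpr17 the male slope minus the female slope ran from -0.017 ± 0.0088 (SE) log2 per month in corpus callosum to 0.024 ± 0.013 in entorhinal cortex.

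Between a white matter and a grey matter region, all mice pooled, 5 of the 6 genes were higher in corpus callosum than in motor cortex. The joint edgeR fit of 116 libraries had no term for the mouse, although both regions come from the same animals. In it the difference was 2.74 ± 0.075 (SE) log2 for Enpp6 (adjusted p = 1.42e-62), 2.06 ± 0.048 for Bcas1 (8.51e-69) and 1.96 ± 0.050 for Myrf (1.05e-65). It was smaller for Neu4, 0.94 ± 0.055 (1.09e-32), and for Gpr17, 0.67 ± 0.037 (1.09e-34). Bmp4 was at -0.27 ± 0.14, with an adjusted p of 0.066. With the mouse as a block, over 114 libraries, the adjusted p of edgeR's test was 3.48e-40 for Enpp6, 1.64e-45 for Bcas1 and 7.26e-44 for Myrf. For Neu4 it was 9.35e-26 and for Gpr17 5.28e-30. Bmp4 was at -0.33 in that fit, with an adjusted p of 0.043. Of all genes 48.3% were called higher and 39.5% lower in corpus callosum.

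The marker lists are given beside it, with no test between them. The median was 2.17 log2 for the 14 myelin genes, all called higher, 1.15 for the 3 lineage factors, also all higher, 0.62 for 17 newly formed oligodendrocyte genes, 11 higher and 3 lower, and 0.50 for the 9 precursor genes, 7 higher and 2 lower.

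**Figure D4:**
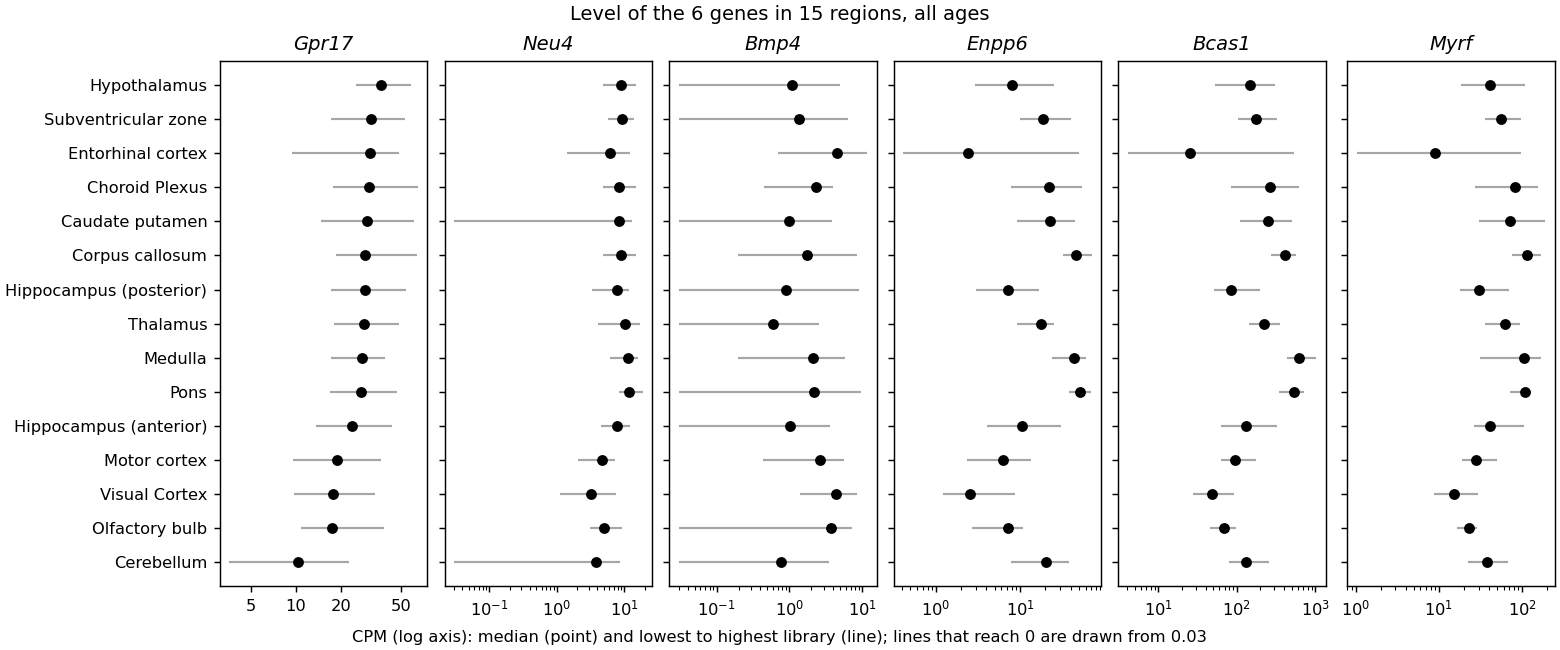
CPM of each of the 6 genes on a log scale (x axis) in the 15 regions (y axis), 1 panel per gene, with a point at the median and a line from the lowest to the highest library, drawn from 0.03 where a library had no read. Gpr17 spans medians from 10.3 in cerebellum to 36.6 in hypothalamus, while Bcas1 spans 25.4 in entorhinal cortex to 625 in medulla.

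The order of regions differed between the genes. Gpr17 was highest in hypothalamus, with a median of 36.6 CPM over all ages, followed by subventricular zone (31.5), entorhinal cortex (31.1), choroid plexus (30.8), caudate putamen (29.7), corpus callosum (28.7), posterior hippocampus (28.7), thalamus (28.4), medulla (27.5), pons (27.2), anterior hippocampus (23.4), motor cortex (18.8), visual cortex (17.5), olfactory bulb (17.4) and cerebellum (10.3). At 3 months alone the mean was 54.7 ± 7.02 CPM (SD, n = 10) in corpus callosum and 50.5 ± 4.75 (n = 9) in hypothalamus. Neighbours in each order were compared within mice by a 2-sided sign-flip permutation test, adjusted over 84 pairs, of which 34 differed. The order was set by the medians of the same libraries, and the p-values take no account of that. Hypothalamus was above subventricular zone in 40 of 51 mice, by 0.24 log2 (adjusted p = 5.6e-05, the adjusted form of the smallest value that 100000 permutations allow). The regions from subventricular zone to thalamus did not differ between neighbours beyond their spread. Within mice medulla was below pons, against the order of the medians, by -0.12 log2 (higher in 21 of 51 mice, adjusted p = 0.011). Anterior hippocampus was above motor cortex in 54 of 57 mice, by 0.32 log2, and olfactory bulb above cerebellum in 57 of 57, by 0.87 log2.

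Neu4 was highest in pons (median 11.8 CPM), medulla (11.2) and thalamus (10.3), whose neighbours did not differ beyond their spread, and lowest in cerebellum (3.85) and visual cortex (3.17). Bmp4 stood highest in the cortical regions, with 4.53 CPM in entorhinal cortex and 4.41 in visual cortex, then 3.76 in olfactory bulb and 2.62 in motor cortex, and lowest in thalamus (0.600). Its only neighbours to differ were olfactory bulb and motor cortex, by 0.45 log2 in 44 of 58 mice (adjusted p = 0.0025).

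Enpp6, Bcas1 and Myrf shared the same 3 regions at the top, pons, corpus callosum and medulla, and had their lowest median in entorhinal cortex. Enpp6 was at 51.4 CPM in pons, 46.2 in corpus callosum and 43.7 in medulla, against 2.58 in visual and 2.39 in entorhinal cortex, which did not differ beyond their spread (adjusted p = 0.61). Bcas1 was at 625 CPM in medulla, 529 in pons and 411 in corpus callosum, against 25.4 in entorhinal cortex, and each of these top neighbours differed (adjusted p = 5.6e-05). Myrf was at 112 CPM in corpus callosum, 108 in pons and 106 in medulla, against 9.04. Gpr17 in entorhinal cortex, with 31.1 CPM, was in contrast among the highest. The Myrf difference between pons and medulla (adjusted p = 0.0495) includes the medulla libraries of high mouse number.

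Between mice of the same age and sex, the 6 genes fell into a tight trio and looser partners, before the mean of the myelin genes was removed. Residuals of log2 CPM after removal of age and sex were correlated for the 15 gene pairs in each of 15 regions with permutation p-values adjusted over all these tests, of which 85 were positive and 10 negative past the threshold. Bcas1 and Myrf correlated in 15 of 15 regions, with a median r of 0.89 and a range from 0.33 in medulla to 0.98 in choroid plexus. Enpp6 and Bcas1 did so in 14 regions (median 0.84), and Enpp6 and Myrf in 13 (median 0.78). With the mean of the myelin genes removed as well, Bcas1 and Myrf passed in 0 of 15 regions (median r 0.22). Enpp6 then passed with Bcas1 in 1 region (median -0.031) and with Myrf in 1 (median -0.072). In corpus callosum the r of Bcas1 and Myrf was 0.891 and rho 0.873 (n = 57, permutation p = 1e-05 for both, the smallest the permutations can give, adjusted 6.4e-05 and 6.6e-05), and r was 0.862 without the 2 mice farthest from the median. Over all mice the medulla r of Bcas1 and Myrf was 0.329 and rho 0.254 (adjusted permutation p = 0.034, 0.203 without 2 mice). From mice 1 to 44 r was 0.690 and rho 0.594 (r 0.612 without 2 mice). That cut was chosen on the values of Myrf and drops its low medulla libraries. These values are therefore given without a p-value, and nothing is read from their difference.

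**Figure D5:**
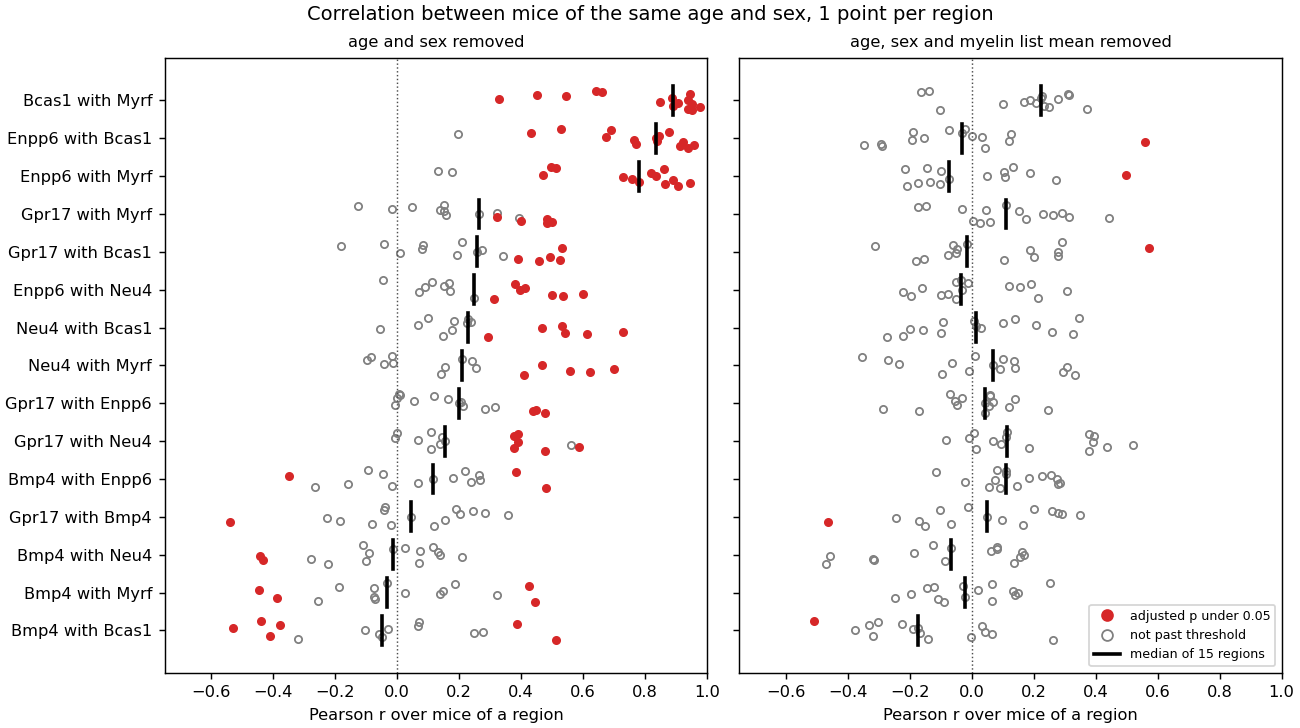
Pearson r between mice of the same age and sex (x axis) for each of the 15 gene pairs (y axis), 1 point per region and a bar at the median, filled red where the adjusted p passed the threshold, before (left) and after (right) removal of the myelin list mean. At left Bcas1 and Myrf have a median r of 0.89 and pairs with Gpr17 medians from 0.043 to 0.26, and at right 3 positive and 2 negative points pass.

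The median r of Gpr17 with each of the others was below those within the trio. It passed as positive with Neu4 in 6 of 15 regions (median r 0.15), with Bcas1 and Myrf in 5 each (0.26 for both) and with Enpp6 in 3 (0.20). Nothing is read from these counts of Gpr17, which lie near or below the share of positive tests over all gene pairs. In corpus callosum the r with Neu4 was 0.587 and rho 0.514 (n = 57, permutation p = 0.00011 and 0.00035, adjusted 0.00054 and 0.0015), and r was 0.562 without 2 mice. That with Bmp4 was -0.539 and rho -0.544 (permutation p = 5e-05 and 2e-05, adjusted 0.00028 and 0.00012), -0.556 without 2 mice, and this was the only region of 15 in which the pair passed. With the mean of the myelin genes removed as well, 3 positive and 2 negative tests passed over all gene pairs.

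Set against the means of marker lists between mice of the same age and sex, 810 tests added after seeing the data, Bcas1 followed the myelin genes in 15 of 15 regions (median r 0.97), Enpp6 in 14 (0.87) and Myrf in 13 (0.91). Over all 810 tests 285 passed as positive and 56 as negative. Gpr17 passed with the precursor genes in 6 regions (0.32) and the microglial genes also in 6 (0.29). It did so with the lineage factors (0.30), the astrocyte genes (0.28) and the other newly formed oligodendrocyte genes (0.24) in 5 each. With the myelin genes it passed in 4 (0.20), and with the neuronal genes positively in 1 and negatively in 5. Nothing is read from these counts of Gpr17, whose positive ones lie near the share over all tests. Neu4 passed most often with the astrocyte genes, in 9 regions (0.36), and negatively with the neuronal genes in 5. Bmp4 followed a different list, the fibroblast and mural cell genes, in 11 of 15 regions (median r 0.51). In corpus callosum that r was 0.808 and rho 0.783 (n = 57, permutation p = 1e-05 for both, the smallest possible, adjusted 7e-05 and 7.6e-05), and 0.799 without 2 mice. The summed level of the 5 fibroblast and mural genes there was 31.4 to 66.5 CPM at 3 months and 29.6 to 44.7 at 28 months. The part of vascular or meningeal tissue in the Bmp4 values was not tested.

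Likeness across the study was described over the means of each of the 15 regions at each of the 7 ages, after each region's mean was subtracted, among 11954 genes of at least 5 CPM. These points share mice and libraries, so no p-value is given. The 8 genes most like Gpr17 were P4ha1, a collagen prolyl hydroxylase (r = 0.83), the chaperone gene Hsph1 (0.82), the histone gene Hist3h2a (0.81), the co-chaperone gene Chordc1 (0.80), Zmym1 (0.79), Trim17 (0.79), Ubxn2b (0.78) and Hacd1 (0.78). Neu4 ranked 100 for Gpr17, with an r of 0.65, while Gpr17 ranked 1 for Neu4, ahead of Mpzl1 (0.63) and Plod1 (0.62). The r of Gpr17 was -0.21 with Enpp6, -0.44 with Bcas1 and -0.39 with Myrf. Most like Enpp6 were Prr5l (0.87) and the myelin genes Pllp (0.87) and Mag (0.86). Most like Bcas1 were Mbp (0.96), Bcas1os1 (0.96), which overlaps it, and Gatm (0.94). Most like Myrf were Sox10 (0.91), Csrp1 (0.88) and Ppp1r14a (0.86). Bmp4 lay under 5 CPM and was not ranked.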

How the data were processed

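Per the labels' protocols, RNA was isolated with an RNeasy kit, cDNA was made by Smart-Seq2 and libraries by Nextera XT, and sequencing was unstranded. The submitters' processing notes name Trim Galore 0.3.7, STAR 2.5.3a, DESeq2 and GRCm38. The authors deposited 1 table of raw read counts per gene, which was checked to hold whole numbers with unequal totals. The labels gave region, sex, age and mouse number.

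Each region was fitted alone in R 4.3.3 with edgeR 4.0.16 (quasi-likelihood, TMM factors, filterByExpr), with age in months or as a factor beside sex, and p-values were adjusted by Benjamini-Hochberg across all genes of a region and contrast, with a threshold of 0.05. CPM used TMM factors over all libraries, and log2 CPM a prior count of 2. Correlations and comparisons of neighbouring regions used 100000 permutations, 2-sided, in Python 3.11.15 (numpy 2.4.6, pandas 2.3.3, scipy 1.17.1). Figures used matplotlib 3.10.9. The scripts were tested on simulated data for corpus callosum, with 100 genes changed at each size. Of age slopes set by a change of 0.5 log2, 9% were recovered, and at 1 log2 92%. For sex differences in level these shares were 78% and 100%, and for sex differences in slope 0% and 9%. Age slopes of the smaller size and sex differences in slope were thus mostly missed, so the lack of a call there shows little.

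The 6 genes and the gene lists were chosen with earlier results of these data known. List genes are named where they pass in 1 direction in at least 8 of 15 regions or stand first in their list, and the genes most like a member by rank. One list gene that meets this rule is not reported here. One listed symbol, 9630013A20Rik, was not in the table. Alternatives were DESeq2 1.42.0, RLE factors, no filter, males alone, mice 16 to 56, covariates, omission of doubtful or shallow libraries, the mouse as a block, other prior counts, and leaving out 14 mice in turn. The medulla analysis from mice 1 to 44 and the correlations with list means were added after seeing the data. Libraries share no molecular identifiers, so depth gives counting error only.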

Additional observations from a re-analysis of the deposited data

Results flagged for a closer look

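In 102 groups of 4 to 10 libraries, 11 held 1 library far from the rest of its group, where chance gives about 1 group in 20. For Gpr17, 3 such libraries were high: mouse 9 in caudate putamen at 12 months with 44.0 CPM (others 29.8 to 36.6), mouse 37 in cerebellum at 3 months with 22.7 CPM (others 12.9 to 17.5), and mouse 51 in corpus callosum at 18 months with 35.2 CPM (others 21.5 to 27.2). The other Gpr17 libraries were low: mouse 39 in entorhinal cortex at 18 months with 9.46 CPM (others 23.3 to 32.8), mouse 17 in pons at 3 months with 36.3 CPM (others 41.8 to 47.0), mouse 3 in pons at 12 months with 21.1 CPM (others 27.0 to 28.5), and mouse 23 in thalamus at 18 months with 20.4 CPM (others 24.6 to 28.9). In corpus callosum, Bmp4 was high in mouse 33 at 3 months, with 6.88 CPM (others 1.65 to 3.77), and in mouse 22 at 15 months, with 8.57 CPM (others 0.711 to 3.90). Enpp6 was low there in mouse 8 at 26 months, with 40.0 CPM (others 54.2 to 56.9), and Myrf was high in mouse 42 at 15 months, with 147 CPM (others 92.6 to 113).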

How the results depend on the processing

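The sex difference of Myrf in medulla, 0.36 log2 over all mice, was -0.089 ± 0.065 (SE) from mice 1 to 44. That cut was chosen on the values of Myrf and drops the females with low values, so nothing is read from this change. In 12-month mice alone the sex difference of Myrf in medulla was -0.12, not past the threshold. That of Bcas1 in posterior hippocampus was -0.38 (adjusted p = 0.16) from mice 16 to 56 and -0.60 (0.28) in 12-month mice alone. Gpr17 was called falling in 14 or 15 of 15 regions in all of them. From males alone, Neu4 was called falling in 2 regions, and Bcas1 was called rising in 3, Enpp6 in 1 and Myrf in 0. From mice 16 to 56, Bmp4 was called falling in 2, Enpp6 rising in 1 and Myrf rising in 2. With the lineage genes as a covariate, Bmp4 was called falling in 2 and rising in 1, Enpp6 falling in 1 and rising in 1, and Myrf rising in 3. Without libraries under 1000000 reads, Bmp4 was called falling in 1. Sex differences passed for 0 pairs in 12-month mice alone and for 1 with medulla from mice 1 to 44. Residual correlations passed for 3 positive and 2 negative tests with the myelin mean removed, and for 37 and 5 with the lineage mean removed. The cause of these changes was not tested. Shares of all pairs called in these alternatives are not given, so nothing is read from the counts of slopes called.

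With the mouse as a replicate block, which pairs both regions of an animal, Bmp4 differed between corpus callosum and motor cortex by -0.33 log2 (adjusted p = 0.043), and no other gene's call changed.

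Leaving out 1 mouse at a time gave 15 to 15 regions for Gpr17, 4 to 8 for Neu4, 0 to 1 falling for Bmp4, 0 to 1 falling and 1 to 3 rising for Enpp6, 7 to 8 for Bcas1 and 5 to 7 for Myrf. Enpp6 was called falling in 1 region, posterior hippocampus, without mouse 59. Sex differences passed for 1 to 3 pairs. Bmp4 in corpus callosum against motor cortex ran from -0.33 to -0.25 log2, past the threshold without mouse 3, 17, 18, 57 or 59. Falling pairs of the lists ran from 35 to 45 (newly formed), 3 to 6 (precursors), 2 to 9 (myelin) and 3 to 8 (BMP), and rising pairs from 3 to 6, 0 to 3, 31 to 43 and 12 to 18. Bmp4, with a median of 11 reads, is limited most by depth.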
